A study of Mus musculus with 10 samples.

Results

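Mcam, Cspg4, Cd248, Anpep and Rgs5 are genes by which mural cells, the contractile smooth muscle cells and pericytes of the vessel wall, are commonly recognised. They are described here in primary smooth muscle cells of mouse aorta. The 5 genes were taken by symbol from the 54446 rows of the deposited count table, and all 5 were among the 15181 genes abundant enough to be tested. The 5 were chosen by their measured differences between the genotypes in an earlier pass over the same libraries. Values that compare the genotypes are therefore given for them as a description, without a p-value.

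Cells were freed from aortas with collagenase and grown to passage 2 before RNA was taken. One group came from wild type mice (WT, 5 libraries). The other came from KitW/Wv mice (WWv, 5 libraries), which carry a different mutant Kit allele on each copy of the chromosome. No transgene, drug or time course is named in the labels. The W allele encodes a c-Kit receptor without its membrane-spanning part, and Wv encodes a receptor with a weakened kinase. The labels do not tie each library to a mouse of its own, so the spread between libraries may in part be technical, and neither strain, sex, age nor culture batch is stated in the labels. None of the 5 genes lies on chromosome 5, which carries Kit.

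Mural cells wrap the endothelial tube, hold it with basement membrane and set its calibre. Mcam encodes CD146, an adhesion receptor of the immunoglobulin family that binds laminin and works beside receptors for PDGF and VEGF. Cspg4 encodes NG2, a membrane proteoglycan that binds collagen VI and integrins. Cd248 encodes endosialin, a lectin-like membrane protein of growing pericytes and fibroblasts. Anpep encodes CD13, a membrane enzyme that trims amino acids from the ends of peptides. Rgs5 encodes a protein of the cell interior, not of the surface, that switches off the G proteins used by contractile receptors. None of the 5 is exclusive to mural cells, since endothelial cells can carry Mcam and Anpep, and fibroblasts can carry Cd248 and Anpep. In bulk RNA, fewer cells of a type and less RNA per cell cannot be told apart.

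Library totals ranged from 42040255 to 53863661 counts. On the first principal component (52.5% of the variance) WT 2 lay at 20.2, within the WWv range of 11.5 to 33.4, whereas the other WT libraries lay between −51.1 and −29.1. Results that WT 2 moves are therefore given with and without it. Smooth muscle markers were abundant in every library, with a summed level of 12929 to 16587 CPM (counts scaled to library size) in WT and 20458 to 24054 in WWv. Endothelial markers summed to 363 CPM in WT 2, against 99.3 to 123 for WT otherwise and 100.4 to 232 for WWv, and none of the 10 was at 0 throughout. Fibroblast and adventitial markers summed to 1360 to 1684 CPM in WT and 1249 to 1444 in WWv. Macrophage, Schwann cell and melanocyte lists summed to at most 40.7, 13.8 and 0.818 CPM, and the melanocyte genes Dct and Tyr had no count in any library, which allows at most 0.0714 CPM. Kit, the mutated gene, averaged 4.12 ± 0.629 CPM over WT and 2.00 ± 0.764 over WWv (SD, n = 5), a log2 fold change of −1.04 ± 0.25 (edgeR adjusted p = 0.0122).

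For Mcam the WT libraries 1 to 5 gave 49.6, 69.0, 60.8, 59.9 and 80.1 CPM. The WWv libraries 1 to 5 gave 197, 278, 287, 248 and 230.3 CPM. Every WWv library lay above every WT library, and WT 2 lay within the range of the other WT libraries. The means were 63.9 ± 11.4 and 248 ± 36.4 CPM (SD, n = 5 each), a log2 fold change of 1.96 ± 0.14 (SE), or 3.89-fold higher in WWv. Without WT 2 it was 1.99 ± 0.15. Behind these values were between 2377 and 12061 counts per library. Mcam (ENSMUSG00000032135.15) lies on chromosome 9, 44134469 to 44142727, on the plus strand of mm10. Of its 3350 exon bases 17 are shared with Gm10687, an antisense gene. The counting step was not stated to use strand, so reads on those bases cannot be assigned.

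The promoter of Mcam is shown because Mcam had the largest upward difference of the 5 genes. The window, from RefSeq on GRCm38.p6, is chr9:44134408-44134707 on the plus strand and runs from 250 bases before to 50 bases after the RefSeq start. Capitals mark every match, on either strand, to E-box (CANNTG), Sp (GGGCGG) and CRE (TGACGTCA) letters.
Mcam: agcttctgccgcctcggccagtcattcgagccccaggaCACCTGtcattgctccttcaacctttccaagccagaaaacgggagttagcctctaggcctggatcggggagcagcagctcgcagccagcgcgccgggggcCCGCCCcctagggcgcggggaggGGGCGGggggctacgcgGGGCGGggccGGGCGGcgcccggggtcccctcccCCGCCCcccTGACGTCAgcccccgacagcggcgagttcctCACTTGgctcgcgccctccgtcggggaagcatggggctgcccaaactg
With the start base counted as 1, the CRE letters occupied −29 to −22. Sp letters matched 5 times and the E-box 2 times, at −212 and at 3. The share of all 32851 promoter windows of this length with a match was 72.3% for the E-box, 35.7% for Sp and 1.79% for CRE. The CRE search was added after the sequence had been read. With 72.7% G and C the window was richer in these bases than 94.3% of windows or as rich. Letters for TEAD (GGAATG), RBPJ (TGGGAA), AP-1 (TGANTCA), SMAD (GTCTAGAC), the hypoxia response (ACGTG) and the CArG box of smooth muscle genes were searched in the same way and were not in this window. They are in 14.7%, 25.6%, 7.81%, 0.213%, 19.6% and 1.63% of windows. A match describes letters and not binding.

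For Cspg4 the WT libraries 1 to 5 gave 56.3, 154, 65.0, 45.0 and 38.7 CPM, and the WWv libraries 249.9, 259, 235, 218 and 208. The groups did not overlap, but WT 2 held more than 2 times the level of any other WT library and lay between the groups. The WT mean was 71.8 ± 47.0 CPM and the WWv mean 234 ± 21.2 (SD, n = 5), a log2 fold change of 1.70 ± 0.33 (SE), or 3.26-fold higher. Over the other 4 WT libraries the mean was 51.3 ± 11.7 CPM, and the log2 fold change without WT 2 was 2.19 ± 0.14, or 4.56-fold. WT 2 was also the library with the highest endothelial marker sum, and the part of endothelial cells in its Cspg4 level was not tested. Cspg4 (ENSMUSG00000032911.6) lies on chromosome 9, 56865033 to 56899870, plus strand, and no other gene overlaps its 11931 exon bases.

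The Cspg4 window (chr9:56864854-56865153, plus strand, RefSeq on GRCm38.p6, marked in the same way) is printed for comparison with that of Mcam, as both genes were higher in WWv.
Cspg4: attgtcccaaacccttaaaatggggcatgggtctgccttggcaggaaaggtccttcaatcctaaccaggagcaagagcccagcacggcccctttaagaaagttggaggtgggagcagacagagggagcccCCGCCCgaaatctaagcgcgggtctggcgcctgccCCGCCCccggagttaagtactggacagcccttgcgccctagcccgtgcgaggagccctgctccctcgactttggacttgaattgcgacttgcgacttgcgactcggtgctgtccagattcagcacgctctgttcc
It held Sp letters 2 times, and neither E-box nor CRE letters. Of the motifs searched, Sp was the one the 2 windows shared.

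Cd248 was the most abundant of the 5 genes in both genotypes. Its WT libraries 1 to 5 gave 387, 371, 375, 391 and 444 CPM, and its WWv libraries 493, 684, 609.7, 622 and 585. Every WWv library lay above every WT library, with WT 5 the nearest of its group to WWv and WWv 1 the nearest of the other. The WT mean was 394 ± 29.4 CPM and the WWv mean 599 ± 69.3 (SD, n = 5), a log2 fold change of 0.61 ± 0.09 (SE), or 1.52-fold higher, and 0.59 without WT 2. The gene (ENSMUSG00000056481.6) has 1 transcript model of 2605 exon bases on chromosome 19, 5068078 to 5070682, plus strand.

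Anpep ran the other way. Its WT libraries 1 to 5 gave 9.24, 4.83, 9.89, 13.4 and 9.47 CPM, and its WWv libraries 2.32, 2.53, 2.14, 1.83 and 2.79. The groups did not overlap, and WT 2 was again the WT library nearest to WWv. The WT mean was 9.36 ± 3.04 CPM and the WWv mean 2.32 ± 0.366 (SD, n = 5), a log2 fold change of −2.01 ± 0.23 (SE), or 4.03-fold lower. Without WT 2 it was −2.17 ± 0.15. The smallest count behind any of these values was 85. Anpep (ENSMUSG00000039062.15) lies on chromosome 7, 79821803 to 79861059, on the minus strand.

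The Anpep window (chr7:79848161-79848460, minus strand, RefSeq on GRCm38.p6, marked as above) is given as that of the gene with the largest downward difference.
Anpep: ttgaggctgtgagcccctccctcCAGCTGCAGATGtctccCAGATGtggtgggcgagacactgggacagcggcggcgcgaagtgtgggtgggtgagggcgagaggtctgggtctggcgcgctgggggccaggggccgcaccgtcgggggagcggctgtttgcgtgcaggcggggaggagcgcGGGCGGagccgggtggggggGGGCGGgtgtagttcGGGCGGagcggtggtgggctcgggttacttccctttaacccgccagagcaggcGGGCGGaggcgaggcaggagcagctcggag
It held Sp letters 4 times and the E-box 3 times, with 72.3% G and C, close to the composition of the Mcam window. The RefSeq starts used for Mcam, Cspg4 and Anpep all lie inside the GENCODE gene. The windows of Mcam and Cspg4 still take in the GENCODE gene start. The window of Anpep does not, as it ends at 79848460 and the gene on the minus strand begins at 79861059. It is thus the window of an internal start.

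Rgs5 varied widely between libraries of both groups. Its WT libraries 1 to 5 gave 153, 45.4, 149, 311 and 219 CPM, and its WWv libraries 45.2, 109, 83.4, 84.1 and 170.15. The groups overlapped: WT 2 lay level with WWv 1 at the bottom, and WWv 5 lay above 3 WT libraries. The WT mean was 175 ± 98.0 CPM and the WWv mean 98.4 ± 46.2 (SD, n = 5), a log2 fold change of −0.83 ± 0.45 (SE), less than 2 standard errors from 0. Without WT 2 it was −1.08 ± 0.33 and without WT 4 it was −0.52. Rgs5 (ENSMUSG00000026678.10) lies on chromosome 1, 169655501 to 169695813, plus strand.

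The Rgs5 window (chr1:169655251-169655550, plus strand, RefSeq on GRCm38.p6) is shown because, with 52.3% G and C and no Sp letters, it was unlike the other windows.
Rgs5: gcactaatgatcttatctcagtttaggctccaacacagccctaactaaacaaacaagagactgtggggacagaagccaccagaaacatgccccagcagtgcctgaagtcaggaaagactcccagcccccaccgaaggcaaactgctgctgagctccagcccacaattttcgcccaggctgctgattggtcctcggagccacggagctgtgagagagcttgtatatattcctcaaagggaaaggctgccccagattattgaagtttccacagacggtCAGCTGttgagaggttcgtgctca
Its 1 marked match is an E-box that begins at base 27 after the start.

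**Figure D1:**
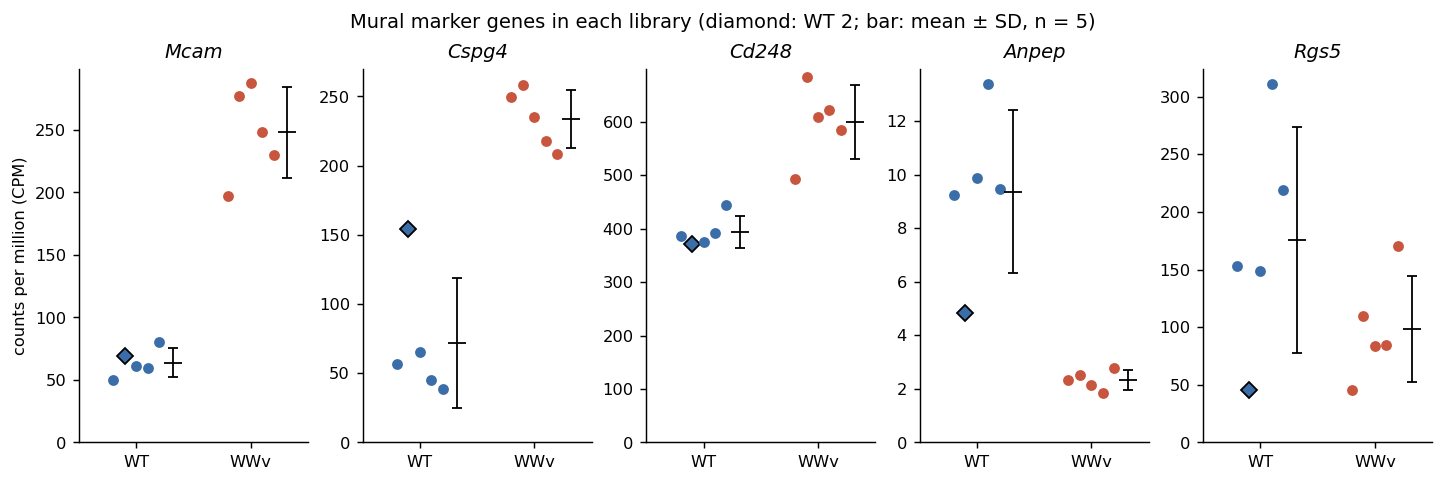
Each panel plots 1 gene in CPM for the 5 WT (blue) and 5 WWv (red) libraries, with WT 2 as a diamond and the mean ± SD as a bar. WWv lies above WT for Mcam, Cspg4 and Cd248 and below it for Anpep, the groups overlap for Rgs5, and WT 2 is the highest WT library for Cspg4 and the lowest for Cd248, Anpep and Rgs5.

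Of the 5 genes 4 were past an adjusted p of 0.05 in the fit over all genes (edgeR quasi-likelihood, Benjamini-Hochberg), 3 of them higher and 1 lower in WWv, beside 28.2% of all tested genes (12.8% higher, 15.4% lower). The same 4 had no overlap between the groups, beside 15.9% of all tested genes (8.03% higher, 7.84% lower). Nothing is read from these counts, as the genes were chosen with the comparison known. With library size alone in place of TMM scaling the calls over all genes split into 983 higher and 3599 lower, against 1940 and 2334, and the 4 genes stayed past the threshold with the same sign. Without WT 2 the calls numbered 7127 and all 5 genes were past the threshold. Leaving out WWv 2 gave 1292 higher calls and leaving out WWv 4 gave 1286. The share of tested genes called was 46.2% without WT 2, and between 19.5% and 26.6% without any other single library. Counts of list members with a library left out are to be read beside these shares.

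Levels of different genes were compared per kilobase of exon. In WT the order was Cd248 (151 ± 11.3 CPM per kilobase), Rgs5 (38.6 ± 21.6), Mcam (19.1 ± 3.40), Cspg4 (6.02 ± 3.94) and Anpep (2.26 ± 0.736, SD, n = 5 for each). The means of Rgs5 and Mcam, and of Cspg4 and Anpep, lay within their summed SDs, to which WT 2 contributed. In the other 4 WT libraries Rgs5 (32.7 to 68.5 CPM per kilobase) lay above Mcam (14.8 to 23.9), whereas in WT 2 it lay below (9.99 against 20.6). Cspg4 lay above Anpep in each of the 5 WT libraries. In WWv the order was Cd248 (229.8 ± 26.6), Mcam (74.1 ± 10.9), Rgs5 (21.7 ± 10.2), Cspg4 (19.6 ± 1.77) and Anpep (0.561 ± 0.0885). Here Rgs5 and Cspg4 were the neighbours within their spread, and their order turned with the length of the longest transcript in place of all exons (Cspg4 at 28.8) and without WWv 5. Mcam stood in the third place in WT and in the second in WWv. Among all tested genes its per-kilobase level went from the percentile of 85.8 to that of 96.5, Cspg4 from 61.9 to 85.7 and Cd248 from 98.5 to 99.1. Rgs5 went from 93.2 to 87.0 and Anpep from 40.5 to 21.4.

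Ratios within a library do not depend on the scaling between libraries. Mcam was 0.0997 to 0.145 of Cd248 per kilobase in the WT libraries and 0.306 to 0.366 in the WWv libraries, without overlap between the groups. The ratio of Mcam to Rgs5 was 0.261 to 0.555 in 4 WT libraries, 2.06 in WT 2 and 1.84 to 5.92 in WWv. The ratio of Mcam to Cspg4 overlapped between the groups, at 1.60 to 7.37 in WT and 2.81 to 4.36 in WWv.

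**Figure D2:**
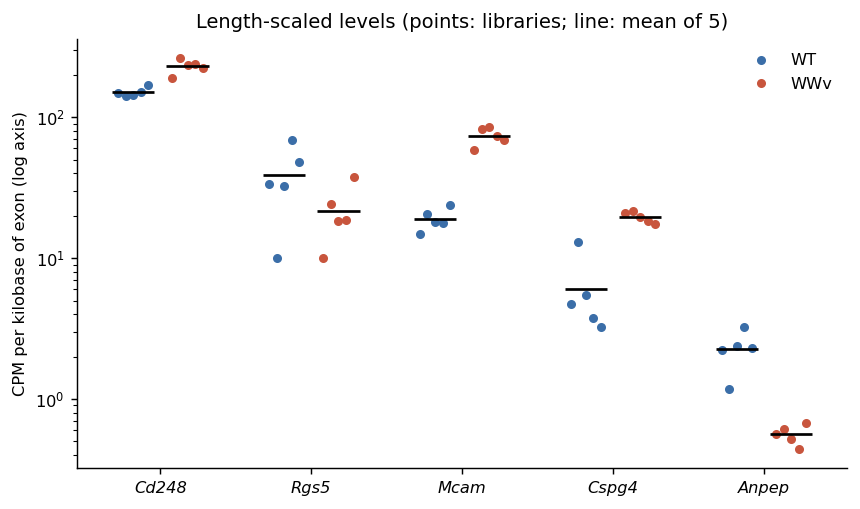
The log axis gives CPM per kilobase of exon for each library (points) and the group mean (line) of the 5 genes, in WT (blue) and WWv (red). Cd248 is highest in both groups, and Mcam lies at a mean of 19.1 in WT and 74.1 in WWv.

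The spread of the genes within groups is given as a description. The biological coefficient of variation, the share of the level by which replicate libraries differ beyond counting error, was 0.106 for Cd248 and 0.153 for Mcam, at the percentiles of 40.3 and 61.6 among all tested genes. It was 0.253 for Anpep, 0.352 for Cspg4 and 0.480 for Rgs5, at 84.0, 93.0 and 97.5. For Cspg4 the spread lay on the WT side, with a standard deviation of 65.5% of the mean in WT and 9.05% in WWv. Much of it rested on WT 2, as the mean ± SD was 71.8 ± 47.0 CPM with it and 51.3 ± 11.7 over the other 4 WT libraries. For Rgs5 the standard deviation was 55.9% of the mean in WT and 46.9% in WWv, so both groups were uneven.

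Other genes that mark pericytes and mural cells were called about as often as all tested genes. Of 18 tested members of this list 1 rose and 4 fell, beside 28.2% of all tested genes called (12.8% higher, 15.4% lower), with a median log2 fold change of −0.01, equal to the −0.01 of all tested genes. The largest fall was that of Steap4, a metalloreductase, from 4.10 ± 2.05 to 0.130 ± 0.0749 CPM (log2 fold change −4.94 ± 0.57, edgeR adjusted p = 0.000454), with no overlap between the groups. Its WWv level is near the 0.0714 CPM allowed to a gene without counts, so the size of the fall is uncertain. Kcnj8 and Abcc9 encode the subunits of the vascular ATP-sensitive potassium channel, and both fell, by 1.88 (adjusted p = 0.0119) and 1.66 (adjusted p = 0.0166) on the log2 scale. WT 2 lay within the WWv range for both, at 0.280 CPM for Kcnj8 and 2.22 for Abcc9, and the call of Abcc9 was lost with limma-voom (adjusted p = 0.0857). The others past the threshold, named after their values were seen, were Cox4i2, a respiratory chain subunit (−0.87), and Gjc1, a connexin (0.21).

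The defining mural receptor gene Pdgfrb, also a partner of CD146, did not pass (715 ± 129 CPM in WT, 796 ± 61.5 in WWv, log2 fold change 0.15 ± 0.12, adjusted p = 0.364). Notch3, Des, Tbx18 and Foxs1 were likewise not past the threshold, and Higd1b had no count in any library, which allows at most 0.0714 CPM. Vtn and Atp13a5, like it markers of brain pericytes, were also too low to be tested. Leaving out WT 2 or WWv 1 gave 2 higher members, and leaving out any other single library of the 10 gave 0, with the call of Gjc1 lost. Cox4i2 lost its call without WT 1 (−0.84), WT 4 (−0.78), WT 5 (−0.79), WWv 2 (−0.83) or WWv 3 (−0.82), and with limma-voom (−0.80, adjusted p = 0.0541).

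Among ligands, coreceptors and cytoplasmic partners of CD146, 3 of 14 tested genes rose and 2 fell, beside 12.8% and 15.4% of all tested genes, with a median of 0.02. Msn, which encodes moesin, the linker from membrane proteins to actin, rose from 1249 ± 196 to 1789.6 ± 77.6 CPM (log2 fold change 0.52 ± 0.10, edgeR adjusted p = 0.00388). Ntn1, the ligand netrin-1, fell by 0.59 (adjusted p = 0.0127), and Vegfc, a lymphatic growth factor, fell by 0.34 (adjusted p = 0.0206). Lamc1, a laminin chain (0.26), and Fyn, a Src family kinase (0.33), were the other rises, named after their values were seen. The laminin chain of the CD146 ligand laminin-411, Lama4, did not pass (−0.25, adjusted p = 0.224), nor did the galectin genes Lgals1 and Lgals3 or Wnt5a. Higher members numbered 6 without WT 2 and 1 without WWv 4, and lower members numbered 1 without WT 5 or without WWv 2, each time with the call of Vegfc lost. Lamc1 was not called without WWv 2 (0.23), WWv 4 (0.25) or WWv 5 (0.22), nor Fyn without WWv 4 (0.29).

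Among adhesion molecules of the same immunoglobulin family 2 of 14 tested genes rose and 2 fell (median 0.12), a share near the 28.2% called over all genes, and the rises were at most 0.43 on the log2 scale, beside 1.96 for Mcam. As Mcam was chosen by its difference, that contrast carries no test. Icam1, which binds leukocytes, fell from 113 ± 17.2 to 61.6 ± 7.79 CPM (−0.88 ± 0.12, edgeR adjusted p = 0.000788), with no overlap between the groups. The nectin genes parted, Nectin2 falling by 0.43 (adjusted p = 0.00153) and Nectin3 rising by 0.43 (adjusted p = 0.00739). Jam3, named after its values were seen, rose by 0.24. Bcam, a relative of CD146 that also binds laminin, did not pass (−0.12, adjusted p = 0.441), nor did Alcam (−0.08). Icam1, Nectin2 and Jam3 overlap other genes on the opposite strand, so their reads are uncertain. Without WT 2 there were 4 higher members.

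Partners of NG2 included the largest rise of any list examined. Of 12 tested 4 rose and 2 fell (median 0.14), where 12.8% of all genes were higher and 15.4% lower. Col6a3, the long chain of the NG2 ligand collagen VI, rose from 116 ± 29.5 to 320.1 ± 81.7 CPM (1.46 ± 0.21, edgeR adjusted p = 0.00127), whereas Col6a1 fell by 0.63 (adjusted p = 0.0181) and Col6a2, named after its values were seen, by 0.54. Chains of the same collagen thus differed in direction. Itgb1, the integrin beta chain that pairs with NG2, rose from 2223 ± 135 to 3349.8 ± 158.5 CPM (0.59 ± 0.06, adjusted p = 0.000351). Fgf2 (0.57) and Pdgfa (0.44), growth factor genes named after their values were seen, also rose, although both overlap other genes. Without WT 2 the higher members numbered 7, and without WT 1 the lower numbered 1, with Col6a2 at −0.48.

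Among partners and relatives of endosialin 1 of 8 tested genes rose and 0 fell (median −0.03), with 12.8% higher over all genes. It was Col4a1, a basement membrane collagen to which endosialin can bind (0.47 ± 0.09, edgeR adjusted p = 0.00485). Fn1, Col1a1 and the related lectin genes Thbd, Cd93 and Clec14a did not pass. Without WT 2 there were 2 higher members.

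Among other peptidases 1 of 10 tested genes rose and 2 fell (median −0.28), near the 28.2% of all genes called. Enpep, aminopeptidase A of pericytes, fell with Anpep in direction, from 0.620 ± 0.157 to 0.180 ± 0.0767 CPM (−1.80 ± 0.33, edgeR adjusted p = 0.00349), without overlap between the groups. WT 2 stood at 0.690 CPM, among the other WT libraries, whereas its Anpep level did not. In WWv 5 Enpep stood at 0.0573 CPM, near the limit allowed to a gene without counts, which was 0.0557 to 0.0714 CPM over the libraries. The size of its fall is therefore uncertain. Mme, neprilysin, fell by 0.69 (adjusted p = 0.0275) and Lnpep, an intracellular vesicle aminopeptidase, rose by 0.22 (adjusted p = 0.0316). The cytosolic aminopeptidase genes Npepps and Rnpep did not pass. Lower members numbered 5 without WT 2 and 1 without WT 1, WT 4, WT 5, WWv 1 or WWv 3, and Mme was also not called without WWv 2. Higher members numbered 2 without WT 2 and 0 without WT 1, WT 4, WT 5 or any of WWv 2 to WWv 5.

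Among relatives and targets of Rgs5 2 of 10 tested genes rose and 0 fell (median 0.11), against 12.8% higher and 15.4% lower over all genes, and these were the 2 that encode Gq class proteins, Gnaq (0.48 ± 0.05, edgeR adjusted p = 0.000247) and Gna11 (0.34 ± 0.04, adjusted p = 0.000718). The Gi genes Gnai1, Gnai2 and Gnai3 did not pass. Rgs4, whose gene lies 45.7 kilobases from Rgs5, had means of 50.4 ± 24.7 and 76.1 ± 17.7 CPM (0.59 ± 0.35, adjusted p = 0.22), the opposite sign to Rgs5, though neither gene passed. WT 2 was the lowest WT library for both, with Rgs4 at 15.9 CPM. Without WT 2, WT 5 or WWv 1 there was 1 lower member.

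**Figure D3:**
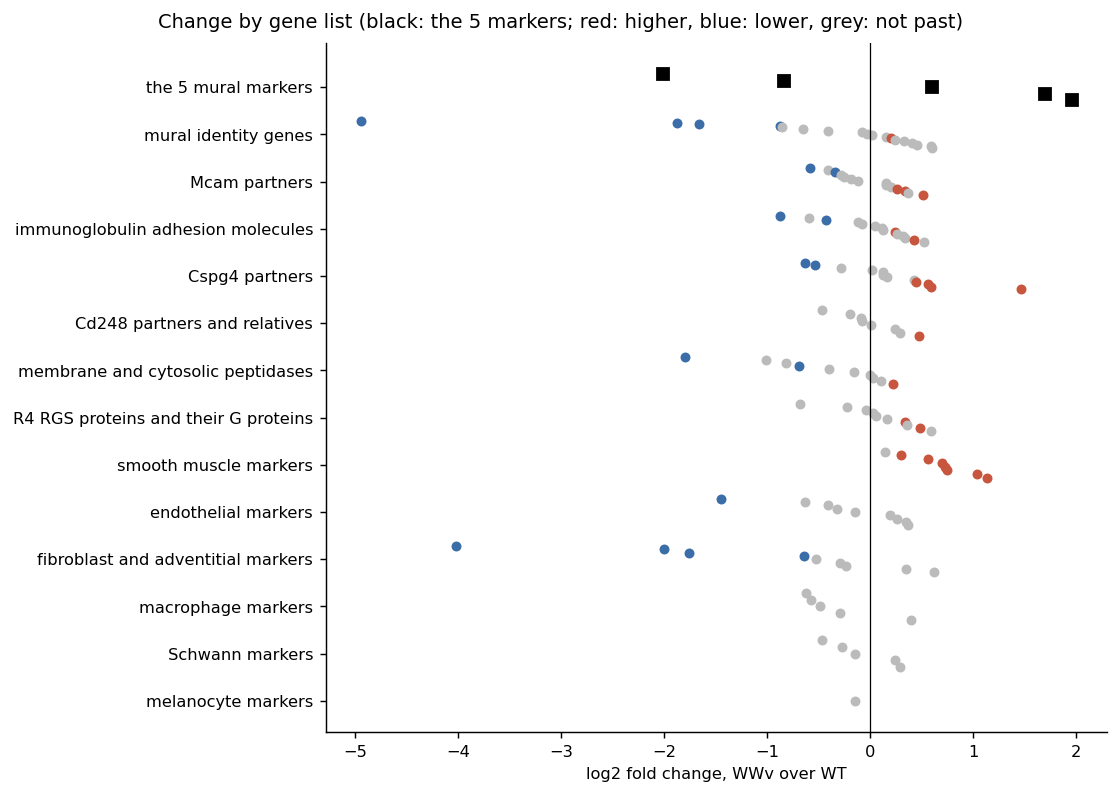
Each point is the log2 fold change of WWv over WT for 1 tested gene, by gene list, with red and blue for genes past the threshold, grey for the rest and black squares for the 5 genes. The squares at 1.96 and 1.70 (Mcam and Cspg4) lie to the right of every point of the mural, adhesion and marker lists, and Steap4 lies farthest left at −4.94. The 5 genes were chosen by their differences, so the place of the squares carries no test.

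Counts for markers of other cell types are to be read beside the 12.8% of all tested genes called higher and the 15.4% called lower. Where WT 2 is left out, 46.2% of all tested genes were called. Smooth muscle markers rose in 7 of 8 members and fell in 0 (median 0.71), among them Myocd (1.13, edgeR adjusted p = 0.00201), Myh11 (1.03, adjusted p = 0.00178) and Acta2 (0.75, adjusted p = 0.000676). Their sum did not overlap between the groups, and WT 2 (12929 CPM) lay level with the lowest other WT library (12934 CPM). Endothelial markers, of which Mcam is at times taken as one, rose in 0 of 9 tested members and fell in 1, the transcription factor gene Erg (−1.45, adjusted p = 0.00627). Without WT 2 the endothelial genes that rose numbered 4, and without WT 4 those that fell numbered 2. Pecam1, an endothelial junction gene, reached 90.6 CPM in WT 2, against 14.9 to 23.3 for WT otherwise and 23.4 to 57.7 for WWv. Erg went the other way and was lowest among WT libraries in WT 2, at 14.4 CPM against 16.2 to 37.6. Mcam in WT 2, the library with the highest endothelial sum, lay within the range of the other WT libraries. Fibroblast and adventitial markers rose in 0 of 9 and fell in 4, with Lum (−4.02, adjusted p = 0.00209), Dpt (−2.005, adjusted p = 0.000858) and Dcn (−1.76, adjusted p = 0.0206) the largest. WT 2 held 2.63 CPM of Lum and 21.2 of Dcn, low as for Anpep and Rgs5. Cd34 of the same list went the other way, at 69.0 CPM in WT 2 against 6.18 to 13.4 for WT otherwise. Without WT 2 the fibroblast genes that rose numbered 2 and those that fell 5. Lum and Dcn lost their calls with limma-voom, and Dcn also without WWv 2 (−1.66). The part of endothelial cells, fibroblasts and smooth muscle cells in the levels of the 5 genes was not tested. No gene of the macrophage (5 tested), Schwann cell (5 tested) or melanocyte list (1 tested) passed, although macrophage genes that fell numbered 2 without WT 2 and 1 without WT 5.

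Genes with the profile most like that of Mcam were ranked by the root mean square distance between log2 CPM values over the 10 libraries, each gene centred on its own mean, among 12567 genes. The nearest were Creb5, a transcription factor gene of the CREB group (distance 0.225), Mgll, which encodes monoglyceride lipase (0.245), Olfm2, an olfactomedin (0.263), Sox11, a transcription factor gene (0.291), and Tspan2, a tetraspanin (0.307). Creb5 went from 7.17 ± 1.30 to 25.3 ± 5.63 CPM, Mgll from 39.3 ± 3.65 to 126 ± 6.18 and Tspan2 from 30.9 ± 5.52 to 83.8 ± 9.49 (SD, n = 5 each). Likeness to Mcam fixes that direction, so it carries no test. Cspg4 lay at a distance of 0.539 from Mcam, Cd248 at 0.698, Rgs5 at 1.56 and Anpep at 2.00. Nearest to Cspg4 were Dock3 (0.202) and Ptprb (0.237), an endothelial phosphatase gene, and each was highest among WT libraries in WT 2, as Cspg4 was (Ptprb at 62.3 CPM against 19.3 to 26.1). Nearest to Cd248 were Pdia5 (0.0783) and Trim47 (0.0976). Nearest to Anpep were Socs3, a feedback inhibitor of cytokine signalling (0.244), and Mir5125 (0.244). Nearest to Rgs5 were Prag1 (0.155) and Cd200 (0.179), which like Rgs5 stood lowest in WT 2 among WT libraries, at 14.3 and 66.8 CPM. As these genes were ranked over the same libraries, the place of WT 2 that they share with Cspg4 or Rgs5 follows from the choice. It carries no test.

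**Figure D4:**
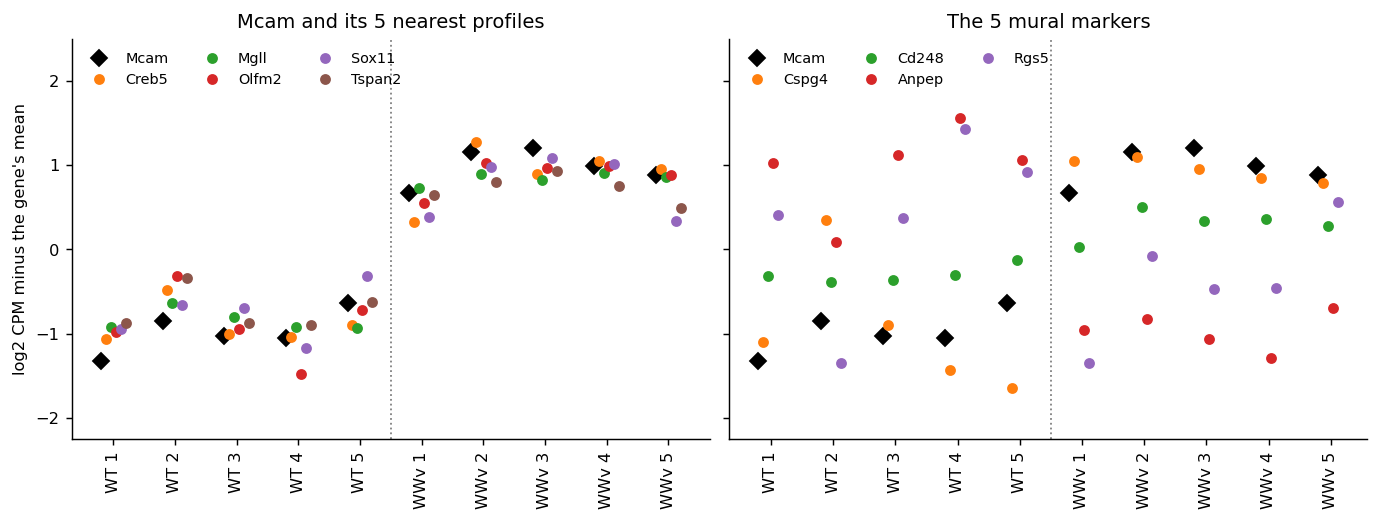
Points give log2 CPM minus the mean of each gene over the 10 libraries, on the left for Mcam (black diamonds) and the 5 genes nearest to it, on the right for the 5 mural genes. On the left the WT libraries lie below 0 and the WWv libraries above it for every gene. On the right Anpep has the opposite sign to Mcam in every library, and Rgs5 in all but WT 2 and WWv 5. WT 2 separates Cspg4 from Mcam.

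Position was examined for genes with any part within 200 kilobases. Around the 5 genes together 9 of 50 tested neighbours rose and 6 fell, or 30.0% past the threshold beside the 28.2% of all tested genes. Around Mcam 5 of 17 rose and 2 fell, with a median log2 fold change of 0.07. The nearest on the low side was Gm10687, the antisense gene that shares 17 bases with Mcam. It rose from 0.674 ± 0.187 to 1.77 ± 0.509 CPM (1.39 ± 0.26, edgeR adjusted p = 0.00384) without overlap between the groups, at a level far under that of Mcam. Its reads on the shared bases are uncertain. Cbl, a ubiquitin ligase gene whose far end lies 0.249 kilobases beyond Mcam, rose by 0.37 (adjusted p = 0.00384). The others past the threshold, named after their values were seen, were Gm39323 (0.68), H2afx (0.34), C2cd2l (0.27), Hinfp (−0.32) and Abcg4 (−0.88). Thy1, a surface marker of mesenchymal cells in the same stretch, did not pass (0.35, adjusted p = 0.11).

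Around Cspg4 1 of 6 tested neighbours rose and 0 fell, around Cd248 1 of 17 rose and 2 fell, and around Anpep 2 of 8 rose and 2 fell. The nearest tested genes on either side, Lingo1 and Snx33 for Cspg4, Rin1 and Tmem151a for Cd248, and Wdr93 and Ap3s2 for Anpep, did not pass. Tmem151a ends 0.177 kilobases from Cd248. Both tested neighbours of Rgs5, Nuf2 and Rgs4, were not past the threshold. Over all 5 genes the higher neighbours numbered 15 without WT 2, where 46.2% of all tested genes were called. The lower numbered 3 without WWv 3, where 19.9% were called. H2afx was not called without WWv 2 or without WWv 4 (0.33 each).

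**Figure D5:**
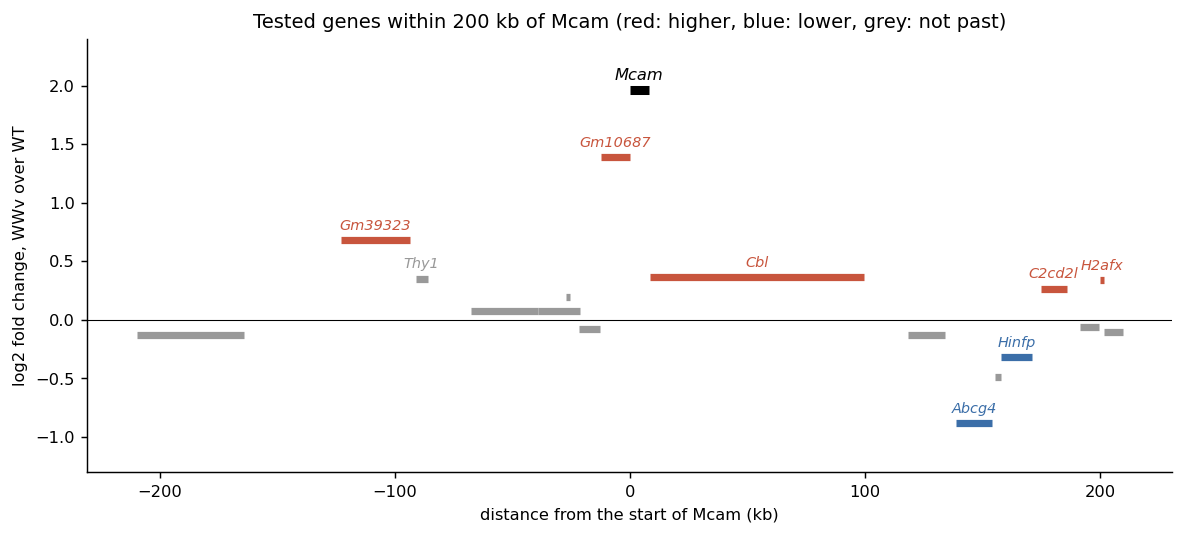
Bars span the tested genes within 200 kilobases of Mcam by distance from its start, at the height of their log2 fold change in WWv over WT. Mcam (black) lies at 1.96, Gm10687 beside it at 1.39, and the other bars lie between −0.88 and 0.68.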

How the data were processed

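RNA was measured by sequencing in 5 WT and 5 WWv libraries. The deposited values are whole-number counts per Ensembl gene. For the steps before the counts, the submitters' processing notes name STAR 2.5.2a, Trim Galore 0.4.3, bcl2fastq 2.17 and the build mm10. The counting tool, its strand setting and the annotation release are not named in the labels. Names, exon lengths and positions came from GENCODE M21, which held 54409 of the 54446 identifiers (the other 37 carried 0.0026% of the counts). Promoters came from RefSeq on GRCm38.p6, which held 4 of the 5 genes, and proteins were not analysed here.

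Counts were filtered with filterByExpr (minimum count 10), scaled by TMM and tested with the quasi-likelihood test of edgeR 4.0.16 in R 4.3.3, with genotype as the only term and Benjamini-Hochberg adjustment over 15181 genes at 0.05. Each SE was recovered from the fold change and its F statistic (size of the log2 value over the root of F). Data were simulated for the comparison of WWv with WT over 15014 genes, with 62 changed 1.5-fold, 70 changed 2-fold and 68 changed 4-fold. Of these 62.9%, 91.4% and 100% were recovered, and 3.93% of calls were false. The changed genes had a WT mean of at least 1 CPM. Each gene was drawn by itself, so no library stood apart as WT 2 does. These rates may therefore not hold for the measured libraries or for genes under 1 CPM. Replicate numbers of the labels are not said to pair libraries, so the main fit used no pairing. Alternatives used limma 3.58.1 (voom) and DESeq2 1.42.0, other scalings and filters, robust dispersions, a replicate block, and libraries left out in turn.

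The 5 genes and all gene lists were chosen with earlier results of these data known. By rule the text names the 5 genes, Kit, the up to 3 called genes of largest change in each list (or the 1 of smallest p), the nearest profiles (5 for Mcam, 2 for each other gene, among genes with a mean of at least 1 CPM) and the nearest tested gene on each side. Other genes are named as said beside them or to show that they did not pass.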

Additional observations from a re-analysis of the deposited data

Results flagged for a closer look

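The check covered 75 genes, those named by rule and the other genes past the threshold in the lists or near Mcam. Other genes named in the text were not checked. Among 150 checks of the 5 libraries of a genotype, 11 had a highest or lowest library whose gap to the next exceeded 0.71 of the range. Chance flags about 1 in 20 groups, and the checks share libraries. WT 2 was the library that stood apart for 3 of the 75 genes: Cspg4 at 154 CPM (38.7 to 65.0 in the other WT libraries), Ptprb at 62.3 (19.3 to 26.1) and Creb5, nearest in profile to Mcam, at 9.44 (6.34 to 7.10). Pecam1 and Cd34 were not among the 75, although WT 2 lay far above the other WT libraries for both. Ptprb was named for its likeness to Cspg4 over these libraries, so its flag is not separate from that of Cspg4. WT 5 was highest for Cd248 at 444 CPM (371 to 391), for Acta2 at 8205 (6256 to 6687) and for Cnn1 at 609 (417 to 452), and lowest for Pdgfra at 250.3 (284 to 298). Among WWv libraries, WWv 1 was highest for Pdgfra at 259 CPM (151 to 172) and lowest for Nuf2 at 22.6 (26.8 to 28.2). WWv 3 was highest for Lmod1 at 341 CPM (294 to 298), and WWv 5 for Dcn at 59.5 (22.8 to 32.8).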

How the results depend on the processing

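The log2 fold changes of the 5 genes kept their sign under every alternative run. Leaving out 1 library at a time gave 1.88 to 2.05 for Mcam, 1.55 to 2.19 for Cspg4, 0.55 to 0.67 for Cd248, −2.17 to −1.85 for Anpep and −1.13 to −0.52 for Rgs5, with 4 to 5 of the 5 past the threshold. The 5 genes were chosen with the comparison known, so nothing is read from their signs or calls. Over all genes leaving out 1 library gave 3013 to 7127 calls (1286 to 3507 higher, 1721 to 3620 lower), or 19.5% to 46.2% of tested genes. For the lists it gave, as higher and then lower members, 1 to 6 and 1 to 3 for Mcam partners, 2 to 4 higher for adhesion molecules, 4 to 7 and 1 to 2 for Cspg4 partners, 1 to 2 higher for Cd248 partners, 0 to 2 and 1 to 5 for peptidases, 2 to 3 and 0 to 1 for RGS and G proteins, 0 to 2 and 3 to 6 for mural identity genes, and 6 to 15 and 3 to 6 for neighbours. With library size only, 983 genes were higher and 3599 lower, 21.5% of calls higher against 45.4%, and the median of all genes was −0.09 against −0.01. Mcam partners then had 1 higher, peptidases 0 higher and 4 lower, mural identity genes 0 higher, RGS and G proteins 1 lower and neighbours 5 higher. Upper quartile scaling gave 0 higher mural identity genes. With no low-count filter there were 0 higher peptidases, 0 higher mural identity genes, 1 lower RGS or G protein gene and 3 lower neighbours, and with 1 CPM in at least 5 libraries 1 lower peptidase. With limma-voom Mcam partners had 5 higher and mural identity genes 2, and with DESeq2 Mcam partners had 5 higher and RGS and G proteins 1 lower. With WT 2 and WWv 1 both left out there were 7111 calls (3361 higher, 3750 lower), or 46.4% of tested genes. Higher members were then 2 of Cd248 partners, 8 of Cspg4 partners, 5 of adhesion molecules, 6 of Mcam partners, 4 of mural identity genes, 4 of RGS and G proteins and 16 of neighbours, and lower members 5 of peptidases and 2 of RGS and G proteins. With the longest transcript, Cspg4 in WWv was at 28.8 CPM per kilobase. The cause of these changes was not tested. Deviations of same-numbered libraries correlated with r of −0.12, −0.10, 0.09, −0.10 and 0.34 over 2000 genes. The same-numbered library was the best partner for replicates 3 and 5 only. The labels do not say whether the numbers pair libraries, and these values cannot settle it. A fit with the replicate block gave 3636 calls (1693 higher, 1943 lower), and Gjc1 (0.21, adjusted p = 0.0579) and Lamc1 (0.26, adjusted p = 0.0668) lost their calls under it. The planned protein comparison was not run.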
